A study of Rattus norvegicus with 12 samples.

Results

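The 6 colon RNA libraries of rats were compared as a distal-like trio and a proximal-like trio, grouped by the FPKM of Hoxb13 and Hoxb6 in each library. A library was called distal-like where its Hoxb13 value was above its Hoxb6 value and proximal-like where it was below, so that 3 of the 6 colon libraries fell on either side, out of 12 libraries in the whole series, the other 6 being from hippocampus. The distal-like trio held the HI libraries 2 and 3 and 1 sham library, and the proximal-like trio held HI library 1 and 2 sham libraries. HI stands for hypoxic-ischemic brain damage, an injury by low oxygen and low blood flow to the brain, and sham for the control treatment without it. The title of the series speaks of newborn rats, whereas the labels give no age, strain, sex, colon segment or genetic change for any of these groups. Both sham columns numbered 3 carry the same name in the deposited table and are called sham 3a, which was proximal-like, and sham 3b, which was distal-like.

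Hox genes code for transcription factors that lie in 4 clusters, a to d, and give tissues their place along the body axis: low-numbered groups are active towards the head and high-numbered groups towards the tail. In the adult gut this order persists, with Hoxb13 used mainly in the distal colon and rectum and Hoxb6 further forward. The proximal colon is known for fermentation, bile salt and lipid handling, and the distal colon for final salt and water recovery under aldosterone and for a thick mucus layer. The names distal-like and proximal-like refer here to the 2 genes of the rule, since the labels do not say from which colon segment a sample was taken.

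Expression was measured in FPKM, the fragments of a gene relative to its length and to the size of its library, for 14803 protein-coding genes. The number of reads behind the values is unknown, so no counting error can be given. The listed FPKM summed to 495505 to 509775 per library, 13464 to 13726 genes reached 1 FPKM, and mitochondrial genes took 8.63% to 11.02%. Genes of the Y chromosome separated the proximal-like library sham 1 from the rest: 3 of them were listed, with at most 0.202 FPKM there and no value under 10.6 FPKM in any other library. The labels do not say whether each library came from its own animal, so all errors measure spread between libraries. The 12 colon epithelium markers were listed in all libraries, with Epcam at 819 to 848 FPKM in distal-like and 835 to 855 FPKM in proximal-like libraries, and Cdx2, which marks intestinal epithelium, at 131 to 148 FPKM in distal-like and 145 to 156 FPKM in proximal-like libraries. Summed, the 12 markers stood at 5427 to 7006 FPKM in distal-like and 6021 to 6289 FPKM in proximal-like libraries, which overlap.

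The values that chose the libraries were the following. Hoxb13 stood at 41.4 FPKM in HI 2, 63.0 FPKM in HI 3 and 11.7 FPKM in sham 3b, the distal-like libraries, against 6.70 FPKM in HI 1, 0.466 FPKM in sham 1 and a listed 0 in sham 3a, the proximal-like ones. Hoxb6 stood at 1.93, 2.64 and 5.50 FPKM in the distal-like libraries HI 2, HI 3 and sham 3b, against 20.5, 49.1 and 56.5 FPKM in the proximal-like libraries HI 1, sham 1 and sham 3a. The libraries nearest to the dividing line were therefore sham 3b on the distal-like side and HI 1 on the proximal-like side, and both held clear amounts of both genes. Since these genes set the groups, no test of them is read as a result, and every later difference between the trios is a description of how libraries grouped in this way differed.

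The rest of the Hox family was ordered by cluster and by group number. In the Hoxb cluster, Hoxb7 stood at 1.21, 1.03 and 2.35 FPKM in the distal-like libraries HI 2, HI 3 and sham 3b, against 16.8, 33.6 and 45.8 FPKM in the proximal-like libraries HI 1, sham 1 and sham 3a. Hoxb8 was at most 0.563 FPKM in distal-like libraries and at least 4.45 FPKM in proximal-like ones. Hoxb3, Hoxb4, Hoxb5 and Hoxb9 were also lower in every distal-like library than in every proximal-like library. In the Hoxd cluster the same order held for Hoxd3, Hoxd4, Hoxd8 and Hoxd9 and reached into the high-numbered groups: Hoxd10 stood at 3.41, 3.71 and 7.12 FPKM in the distal-like libraries HI 2, HI 3 and sham 3b, against 12.5, 24.6 and 24.6 FPKM in the proximal-like libraries HI 1, sham 1 and sham 3a. Hoxd11 was lower in the distal-like trio too, at 1.44 to 2.58 FPKM against 4.32 to 7.81 FPKM in the proximal-like trio.

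The genes of group 13 ran the other way. Hoxa13 stood at 12.9, 13.1 and 9.21 FPKM in the distal-like libraries HI 2, HI 3 and sham 3b, against 6.82, 2.15 and 1.47 FPKM in the proximal-like libraries HI 1, sham 1 and sham 3a. Hoxd13 stood at 3.38 to 7.56 FPKM in distal-like libraries and 1.66 to 2.26 FPKM in proximal-like libraries. Below group 13 most genes of the Hoxa cluster overlapped between the trios. The exception was Hoxa7, which was lower in every distal-like library, at 14.2 to 22.5 FPKM, against 24.0 to 28.0 FPKM in the proximal-like ones. Hoxa5 overlapped between the trios, at 16.6 to 25.9 FPKM in distal-like and 16.2 to 23.1 FPKM in proximal-like libraries. Hoxa9 stood at 25.0 to 41.4 FPKM in distal-like libraries and 15.2 to 28.1 FPKM in proximal-like libraries and had its highest value in sham 3b, as did Hoxa10. Averaged as log2(FPKM + 1), groups 10 to 13 minus groups 1 to 9 gave 0.81 in HI 2, 1.02 in HI 3 and 0.30 in sham 3b, the distal-like libraries, against -0.39 in HI 1, -1.01 in sham 1 and -1.26 in sham 3a, the proximal-like ones. That measure over 28 listed Hox genes includes both rule genes. Over the other 26 it was 0.38 in HI 2, 0.55 in HI 3 and 0.20 in sham 3b, the distal-like libraries, against -0.34 in HI 1, -0.58 in sham 1 and -0.75 in sham 3a, the proximal-like ones, with sham 3b and HI 1 again the libraries nearest to 0. Without Hoxb13, groups 10 to 13 alone overlapped, at 2.62 to 2.94 in distal-like and 2.75 to 2.89 in proximal-like libraries. Groups 1 to 9 without Hoxb6 stood at 2.24 to 2.75 in distal-like and 3.23 to 3.50 in proximal-like libraries. The difference over the 26 genes thus came from the low-numbered groups. Hoxa4, Hoxa5, Hoxa11 and Hoxa13 are each listed under several gene identifiers, of which the one with the highest mean is given.

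**Figure D1:**
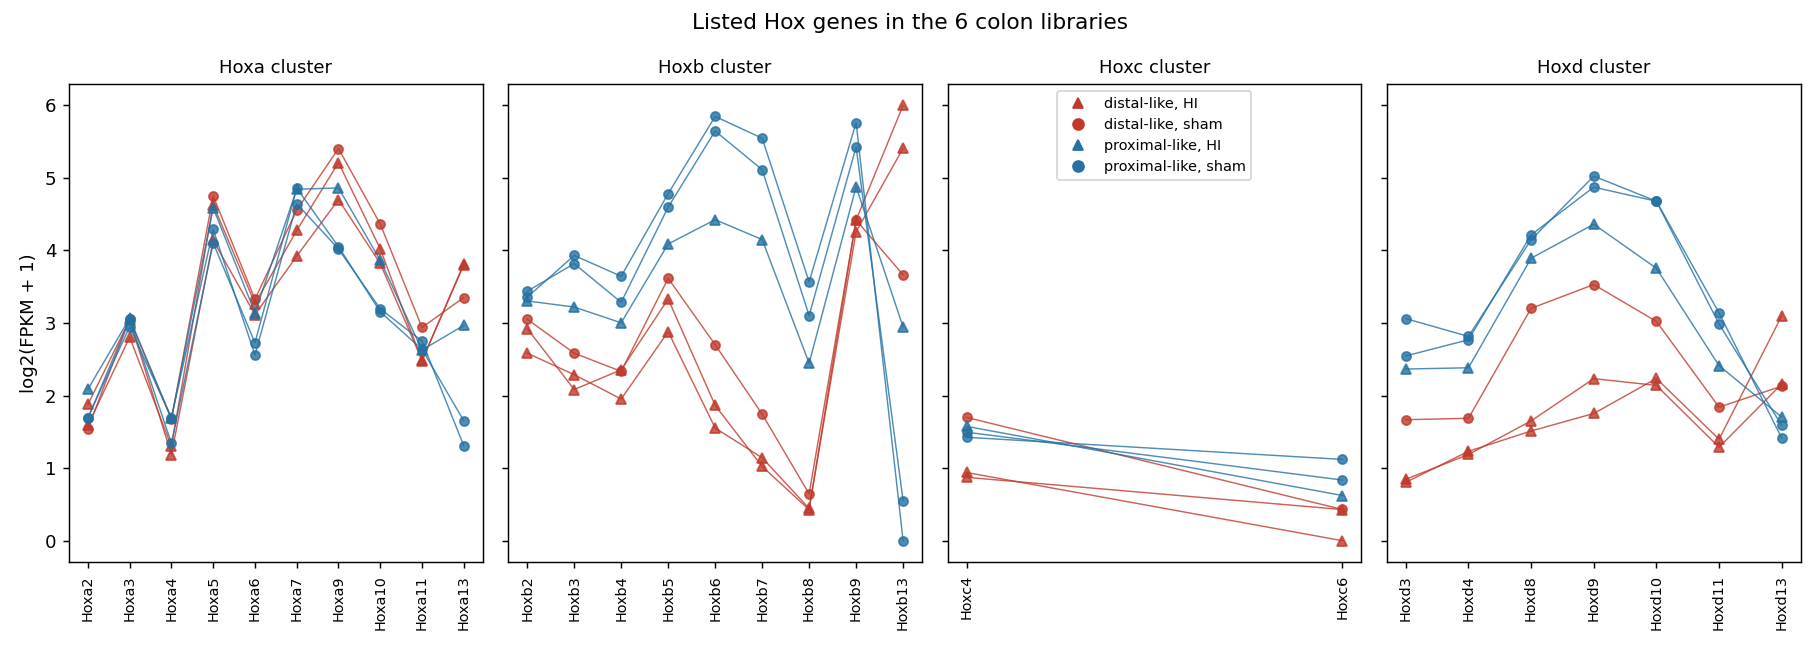
Listed Hox genes of the 4 clusters (x axis, in order of group number) as log2(FPKM + 1) (y axis); each line is 1 library, red distal-like and blue proximal-like, triangles HI and circles sham. The red lines lie under the blue ones through the middle of the Hoxb and Hoxd clusters and above them at Hoxb13, whereas the lines of the Hoxa cluster cross.

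Across all genes, limma on log2(FPKM + 1) tested the 13753 genes that reached 1 FPKM in 3 or more of the libraries. At a Benjamini-Hochberg adjusted p under 0.05, 70 genes were called higher in distal-like libraries (0.509% of those tested) and 241 lower (1.75%). With HI or sham as a covariate, 118 were called higher (0.858%) and 266 lower (1.93%), and 269 of the 311 first calls were called again. Since the libraries were grouped by 2 of their own genes, these counts serve only to choose what to describe. The 311 also rest on single libraries: leaving out sham 1 gave 2 calls, sham 3a 1 call, HI 2 43 calls and HI 3 3 calls, but leaving out sham 3b gave 426 and HI 1 442. At equal HI the 384 calls became 206 when sham 1 was left out, 162 for sham 3a, 97 for sham 3b and 124 for HI 1. All 3 distal-like values lay above all 3 proximal-like values for 1064 genes (7.74%) and below them for 2311 (16.8%), here called separated higher and separated lower. Higher genes made up 31.5% of the separated ones as deposited and 50.1% after median-ratio scaling between libraries, so the excess of lower genes depends on the scaling. The median log2 difference over all tested genes was -0.05. Leaving out Hoxb6, whose call the rule fixed and which is 1 of the 241, 8 of 19 tested Hox genes of groups 1 to 9 were called lower and none higher. Of 7 tested genes of groups 10 to 13, Hoxd10 and Hoxd11 were called lower and none higher, although Hoxb13, Hoxa13 and Hoxd13 were separated higher. In the fit at equal HI, Hoxa13 was called higher. For the gene lists below, called refers to the first fit, without the covariate, unless equal HI is named.

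The 311 called genes were described by which library of each trio lay nearest to the other trio. HI 1 was the proximal-like library closest to the distal-like ones in 227 of them (54 of 70 called higher and 173 of 241 called lower). The distal-like library closest to the proximal-like ones was sham 3b in 210 (38 of 70 called higher and 172 of 241 called lower). In any gene 1 of the 3 libraries of a trio is closest, and the same counts over all tested genes were not made. The difference was at least 2-fold for 31 of the 70 called higher and 112 of the 241 called lower. All 311 had the same sign inside the sham libraries, 1 distal-like against 2 proximal-like, and inside the HI libraries, 2 against 1. This is a property of calling them over the same 6 libraries, and over all tested genes the signs matched for 8728 of 13753.

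**Figure D2:**
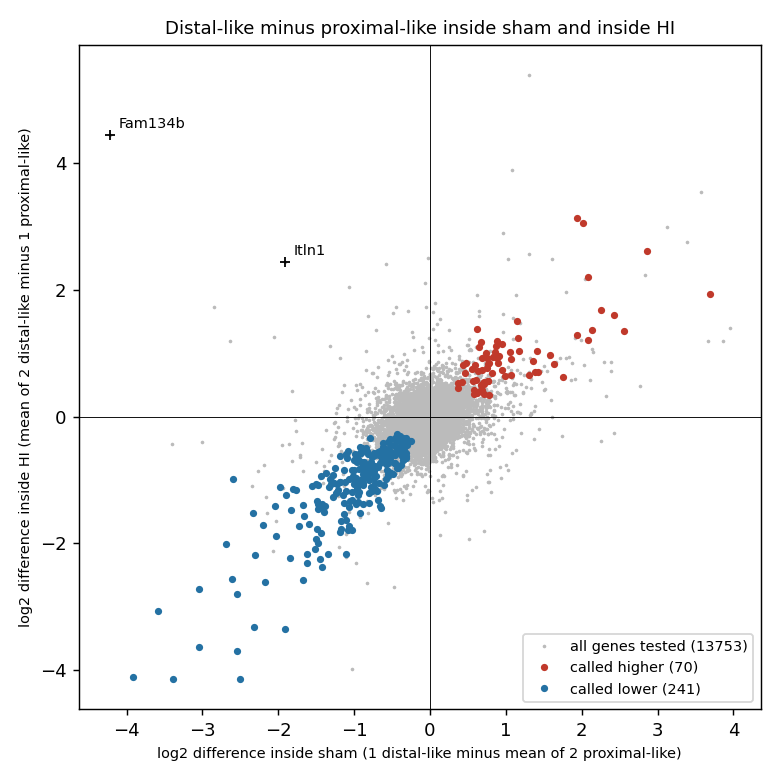
Log2 difference, distal-like minus proximal-like, inside the sham libraries (x axis) and inside the HI libraries (y axis) for 13753 tested genes; red points are the 70 genes called higher and blue points the 241 called lower over all 6 libraries. The coloured points lie in the quadrants where both differences have the same sign, and Itln1 and Fam134b lie where they are opposite.

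Leading genes were taken from those called, separated, of the same sign inside sham and HI, of at least 5 FPKM on average in the higher trio and with no provisional name. By size of difference the first of those higher in the distal-like trio was an ion pump. Atp12a, the colonic proton-potassium pump, stood at 37.2, 21.1 and 9.50 FPKM in the distal-like libraries HI 2, HI 3 and sham 3b, against 3.77, 0.865 and 0.123 FPKM in the proximal-like libraries HI 1, sham 1 and sham 3a, a log2 difference of 3.26 ± 0.60 (SE). Fxyd4, a small regulator of the sodium pump known from kidney and colon, stood at 13.3, 17.9 and 3.53 FPKM in the same distal-like libraries and at 0.983, 0.162 and 0.0811 FPKM in the proximal-like ones. Both genes showed the same ladder, with HI 1 above the other proximal-like libraries and sham 3b below the other distal-like ones. Retnlb, a goblet cell protein that acts on bacteria, stood at 318, 260 and 65.3 FPKM in HI 2, HI 3 and sham 3b of the distal-like trio, against 31.8, 23.7 and 11.1 FPKM in HI 1, sham 1 and sham 3a of the proximal-like trio. Adh1, an alcohol and retinol dehydrogenase, was abundant in every library, at 308, 342 and 266 FPKM in the distal-like libraries HI 2, HI 3 and sham 3b and at 125, 54.5 and 65.8 FPKM in the proximal-like libraries HI 1, sham 1 and sham 3a.

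Other leading genes on this side made reactive oxygen or sugar chains. Nox1, the superoxide-producing oxidase of colon epithelium, averaged 10.6 ± 6.05 FPKM in distal-like and 1.42 ± 1.19 FPKM in proximal-like libraries (SD, n = 3 each). Lpo, a peroxidase of mucosal secretions, averaged 113 ± 26.3 FPKM in distal-like and 34.3 ± 8.22 FPKM in proximal-like libraries (SD, n = 3 each). The enzymes St6galnac4 and B3gnt3, which add sialic acid and N-acetylglucosamine to sugar chains, were also higher: St6galnac4 stood at 34.5 to 41.6 FPKM in distal-like and 6.68 to 17.3 FPKM in proximal-like libraries, and B3gnt3 at 33.2 to 40.7 FPKM in distal-like and 9.77 to 21.4 FPKM in proximal-like libraries. The rest of the 12 leading genes were Pnliprp2, a lipase, Cd177, a surface protein known from neutrophils, Pkp1, a desmosome protein, and Mcub, a subunit of the mitochondrial calcium channel, with log2 differences of 2.69 ± 0.52, 2.16 ± 0.24, 1.51 ± 0.27 and 1.47 ± 0.29 (SE). HI 1 was the highest proximal-like library in all 12, whereas sham 3b was the lowest distal-like library in 8, the exceptions being Pnliprp2, Nox1, Cd177 and Lpo.

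Among the genes most lower in the distal-like trio were several genes known from the small intestine. Reg3b, a lectin that acts on bacteria, stood at 0.953 FPKM, a listed 0 and 4.01 FPKM in the distal-like libraries HI 2, HI 3 and sham 3b, against 23.2, 95.4 and 58.4 FPKM in the proximal-like libraries HI 1, sham 1 and sham 3a, a log2 difference of -4.60 ± 0.65 (SE). It belongs to a family of similar genes among which reads could be split. Lgals2, a galectin that binds galactosides, stood at 1.68, 1.64 and 8.64 FPKM in the distal-like libraries HI 2, HI 3 and sham 3b, against 46.1, 92.4 and 108 FPKM in the proximal-like libraries HI 1, sham 1 and sham 3a (log2 difference -4.26 ± 0.53, SE). Ccl25, a chemokine that draws lymphocytes to the gut, stood at 1.93, 1.95 and 15.0 FPKM in the distal-like libraries HI 2, HI 3 and sham 3b, against 50.9, 91.8 and 88.1 FPKM in the proximal-like libraries HI 1, sham 1 and sham 3a. For these 3 genes sham 3b was the highest distal-like library and HI 1 the lowest proximal-like one, and the trios did not overlap. Ubd, a ubiquitin-like protein, was the leading gene with the least spread inside the trios, at 8.82, 12.7 and 13.5 FPKM in the distal-like libraries HI 2, HI 3 and sham 3b, against 80.1, 97.2 and 72.2 FPKM in the proximal-like libraries HI 1, sham 1 and sham 3a.

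The remaining leading genes on this side were Osr2, Hoxb7, Slc13a1, Nts, Sfta2, Naaladl1 and Pdzk1, beside Hoxb6 itself. Osr2, a zinc finger transcription factor of embryonic mesenchyme, averaged 2.20 ± 1.96 FPKM in distal-like and 37.1 ± 10.8 FPKM in proximal-like libraries (SD, n = 3 each). Slc13a1, a sodium-sulphate transporter, averaged 2.15 ± 2.17 FPKM in distal-like and 29.1 ± 5.34 FPKM in proximal-like libraries (SD, n = 3 each). Nts, the gut hormone neurotensin, stood at 0.204 to 3.31 FPKM in distal-like and 12.4 to 22.8 FPKM in proximal-like libraries. Pdzk1, a scaffold of brush border transporters, stood at a listed 0, 0.339 and 2.33 FPKM in the distal-like libraries HI 2, HI 3 and sham 3b, against 6.05, 14.7 and 13.3 FPKM in the proximal-like libraries HI 1, sham 1 and sham 3a. With 1 library left out in turn, the log2 differences of all 24 leading genes kept their signs. This was fixed by their choice as separated genes and is no check of them. Of the 23 other than Hoxb6, Ubd alone was still called without sham 1, without sham 3a or without HI 3, and 7 were still called without HI 2.

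**Figure D3:**
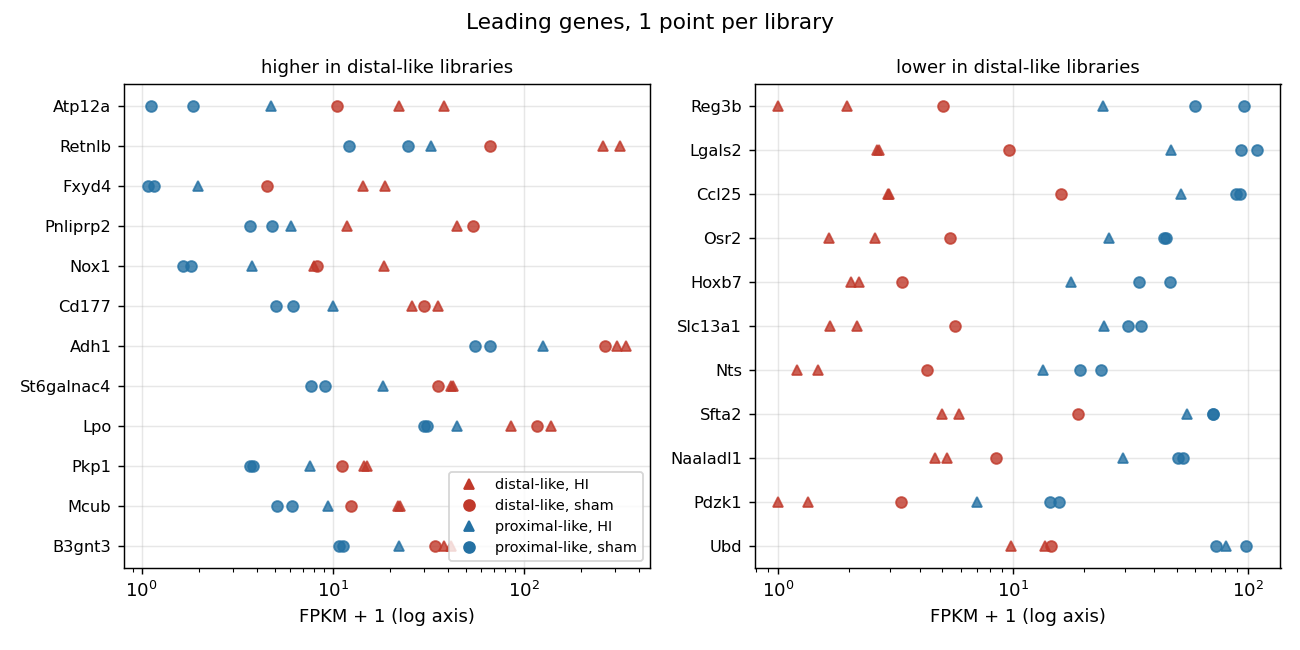
FPKM + 1 on a log axis (x) for the leading genes (y) higher (left panel) and lower (right panel) in distal-like libraries, without the rule gene Hoxb6; each point is 1 library, red distal-like and blue proximal-like, triangles HI and circles sham. In most rows the blue triangle, HI 1, is the blue point nearest to the red ones, and among the lower genes the red circle, sham 3b, is the red point nearest to the blue ones.

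Promoters of 3 leading genes are shown as examples with motifs of factors tied to gut position: CAATAAA, a core bound by Hox proteins of high group number and by Cdx proteins, and CAAAGTC, a core bound by Hnf4 proteins of absorptive cells. Each runs from 250 bases before to 50 bases after the start of the gene on the strand of transcription, in RefSeq sequence of GRCr8, with the motif in capitals on whichever strand it lies. They are Retnlb at chr11:65448270-65448569 on the minus strand, Lgals2 at chr7:112290074-112290373 on the minus strand and Pdzk1 at chr2:187064745-187065044 on the plus strand.
Retnlb: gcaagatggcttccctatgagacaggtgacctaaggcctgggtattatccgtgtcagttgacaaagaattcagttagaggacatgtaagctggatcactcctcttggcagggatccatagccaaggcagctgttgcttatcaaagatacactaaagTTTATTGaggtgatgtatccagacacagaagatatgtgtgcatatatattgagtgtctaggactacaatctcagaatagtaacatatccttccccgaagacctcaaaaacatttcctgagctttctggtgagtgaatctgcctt
Lgals2: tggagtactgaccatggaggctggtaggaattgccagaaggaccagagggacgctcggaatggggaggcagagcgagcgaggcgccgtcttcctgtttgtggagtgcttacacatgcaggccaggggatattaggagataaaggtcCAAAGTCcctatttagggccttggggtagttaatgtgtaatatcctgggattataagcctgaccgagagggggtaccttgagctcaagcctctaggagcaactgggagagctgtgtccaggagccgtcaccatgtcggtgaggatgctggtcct
Pdzk1: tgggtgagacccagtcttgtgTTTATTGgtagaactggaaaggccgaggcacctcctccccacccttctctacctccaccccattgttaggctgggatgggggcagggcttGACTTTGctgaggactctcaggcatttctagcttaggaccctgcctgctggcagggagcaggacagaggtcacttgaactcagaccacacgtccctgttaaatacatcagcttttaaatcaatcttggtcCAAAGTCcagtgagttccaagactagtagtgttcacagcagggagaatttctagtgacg
The capitals mark CAATAAA in Retnlb, CAAAGTC in Lgals2, and both in Pdzk1, with the reverse complement shown where the motif is on the other strand. Of the 24 leading genes 18 had a promoter in the reference table, of which 12 held neither motif and 6 held at least 1, the others being Pnliprp2 with CAAAGTC and Nox1 and Slc13a1 with CAATAAA. Searched on both strands, CAATAAA was found in 3 of 54 promoters of genes called higher (5.56%) and 8 of 175 of genes called lower (4.57%), beside 4.54% of all 27457 promoters of the reference and 2.52% of the 9951 that matched a tested gene. CAAAGTC was found in 4 of 54 promoters (7.41%) of genes called higher and 17 of 175 (9.71%) of genes called lower, beside 4.54% of all promoters and 3.54% of those of tested genes. Both motifs begin with CAA and could share a C end to end, but the matches in the 3 windows shown lie apart. A match is no evidence of binding, and the windows of Hoxb13 and Hoxb6 were not analysed.

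Of 27 tested genes of lipid and nutrient absorption, 1 was called higher in the distal-like trio and 6 lower (22.2%, beside 1.75% of all genes). In all 15 were separated lower (55.6%, beside 16.8% of all genes), and the median log2 difference was -0.35, beside -0.05 over all genes. Fabp1, a fatty acid carrier of enterocytes, stood at 102, 55.2 and 160 FPKM in the distal-like libraries HI 2, HI 3 and sham 3b, against 356, 562 and 588 FPKM in the proximal-like libraries HI 1, sham 1 and sham 3a. Both subunits of the basolateral bile acid exporter were lower in distal-like libraries: Slc51b stood at 18.4 to 25.3 FPKM against 55.6 to 83.3 FPKM in proximal-like libraries, and Slc51a stood at 20.0 to 32.2 FPKM in distal-like and 49.5 to 74.2 FPKM in proximal-like libraries. Npc1l1, which takes up cholesterol, and Dgat2, which makes triglyceride, had log2 differences of -1.10 ± 0.20 and -0.67 ± 0.11 (SE). The 1 member called higher was Ada, which deaminates adenosine, at 36.1 to 38.0 FPKM in distal-like and 17.7 to 22.0 FPKM in proximal-like libraries.

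Of 46 tested genes of salt, water and acid-base transport, 2 were called higher (4.35%, beside 0.509% of all genes) and 1 lower (2.17%, beside 1.75%) in the distal-like trio, 14 were separated higher (30.4%, beside 7.74%) and 6 separated lower (13.04%, beside 16.8%), and the median log2 difference was 0.13. Beside Atp12a, the calcium channel gene Trpv6 was called higher, at 36.3, 29.0 and 29.8 FPKM in the distal-like libraries HI 2, HI 3 and sham 3b, against 16.5, 16.4 and 18.3 FPKM in the proximal-like libraries HI 1, sham 1 and sham 3a. Scnn1a, the alpha subunit of the aldosterone-regulated sodium channel, stood at 43.3, 37.4 and 25.9 FPKM in the distal-like libraries HI 2, HI 3 and sham 3b, against 20.5, 6.87 and 6.26 FPKM in the proximal-like libraries HI 1, sham 1 and sham 3a, and was not called. The other subunits, Scnn1b and Scnn1g, overlapped between the trios, with Scnn1g at 0.758 to 2.66 FPKM in distal-like and 0.465 to 2.63 FPKM in proximal-like libraries. The water and glycerol channel Aqp3 and the butyrate transporter Slc5a8 were separated higher but not called, and in both HI 1 stood far above the other proximal-like libraries. At equal HI, 4 of the 46 genes were called higher, Scnn1a and Slc5a8 among them, and 2 lower. Over all genes, 0.858% were called higher and 1.93% lower at equal HI. Slc5a8 stood at 27.2, 24.6 and 13.8 FPKM in the distal-like libraries HI 2, HI 3 and sham 3b, against 10.7 FPKM in HI 1 and 0.235 and 0.0968 FPKM in sham 1 and sham 3a of the proximal-like trio. Car1, a carbonic anhydrase, was called lower, at 347, 162 and 190 FPKM in the distal-like libraries HI 2, HI 3 and sham 3b, against 635, 666 and 933 FPKM in the proximal-like libraries HI 1, sham 1 and sham 3a. The sodium-proton exchanger Slc9a3 and the chloride-bicarbonate exchanger Slc26a3 overlapped between the trios.

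**Figure D4:**
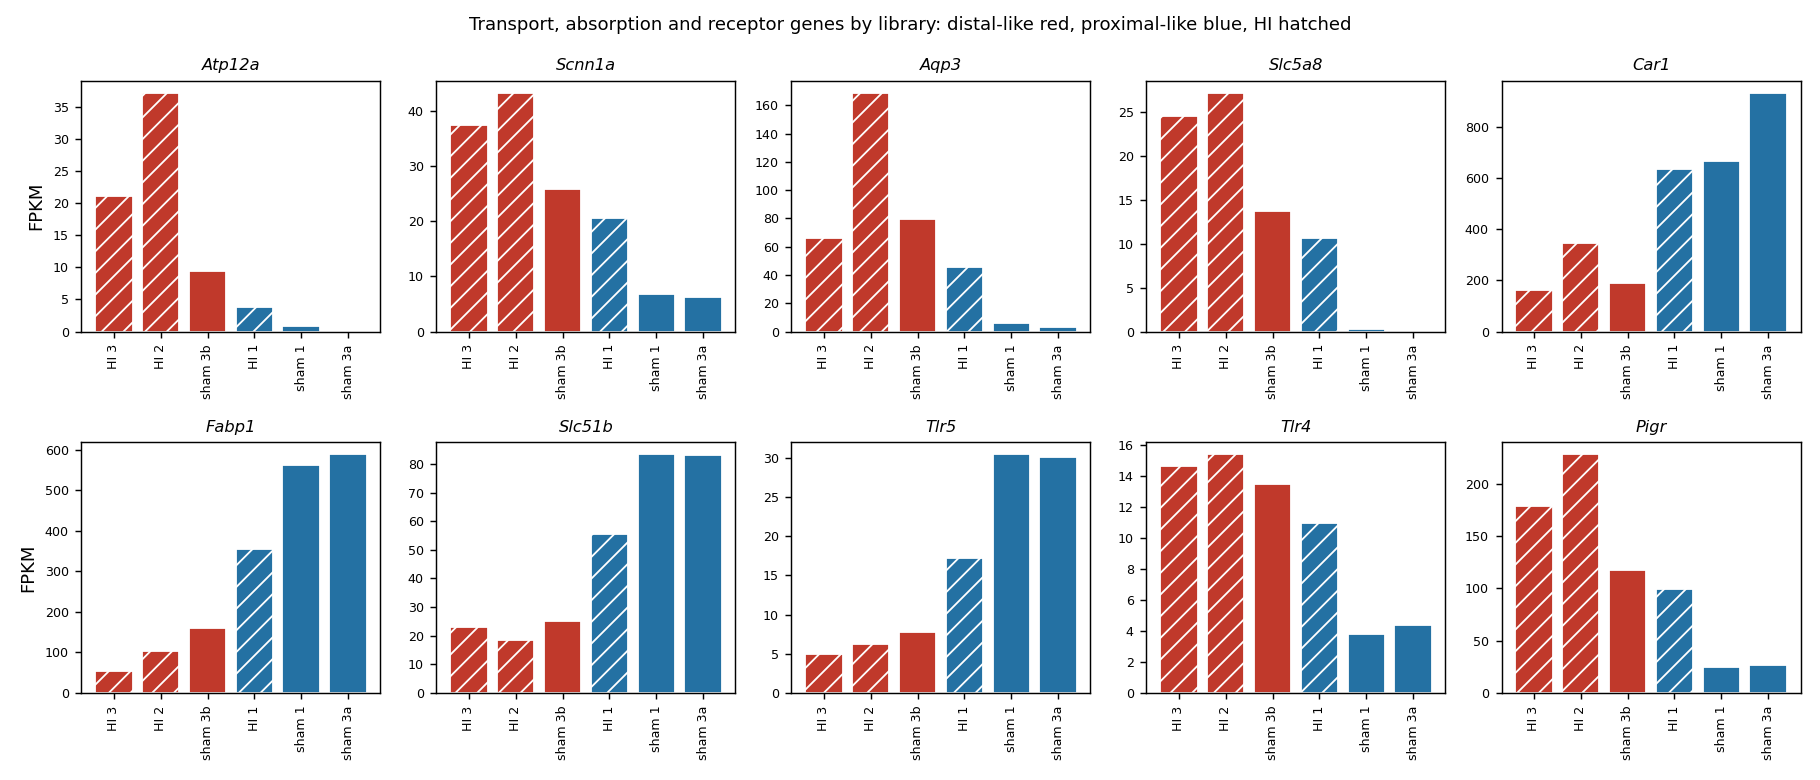
FPKM (y axis) of 10 transport, absorption and receptor genes, picked after their values were seen, in the 3 distal-like libraries (red, left) and the 3 proximal-like libraries (blue, right); HI libraries are hatched. In Scnn1a, Aqp3, Slc5a8, Tlr4 and Pigr, HI 1 stands between sham 1 and sham 3a on one side and the distal-like libraries on the other.

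Of 26 tested goblet cell and mucus genes, 4 were called higher in the distal-like trio (15.4%, beside 0.509% of all genes) and none lower, and 15 were separated higher (57.7%, beside 7.74%) and 1 separated lower, with a median log2 difference of 0.46. The 4 were Retnlb, Klk1, Muc1 and Ccl6. Klk1, a kallikrein protease from a family of close copies, stood at 38.7, 34.8 and 29.3 FPKM in the distal-like libraries HI 2, HI 3 and sham 3b, against 17.7, 15.2 and 16.3 FPKM in the proximal-like libraries HI 1, sham 1 and sham 3a. Muc1, a membrane mucin, stood at 32.9 to 44.5 FPKM in distal-like and 10.9 to 21.3 FPKM in proximal-like libraries. The gel-forming mucin Muc2, listed as AABR07006030.1, which the reference table gives as its synonym, stood at 811, 580 and 566 FPKM in the distal-like libraries HI 2, HI 3 and sham 3b, against 453, 399 and 415 FPKM in the proximal-like libraries HI 1, sham 1 and sham 3a, and was not called. Clca1, a secreted goblet cell protease, spread the most: it stood at 1229, 1161 and 217 FPKM in those distal-like libraries and at 213, 101 and 49.3 FPKM in the proximal-like ones, so that sham 3b and HI 1 were almost level. Zg16, a lectin of the mucus, overlapped between the trios.

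In defence genes the trios differed in both directions. Of 22 tested antimicrobial and surface defence genes, Lpo was called higher and Reg3b lower (4.55% each, beside 0.509% and 1.75% of all genes). Of the same 22, 6 were separated higher (27.3%, beside 7.74% of all genes) and 7 separated lower (31.8%, beside 16.8%). Pigr, which carries IgA across the epithelium, stood at 228, 179 and 118 FPKM in the distal-like libraries HI 2, HI 3 and sham 3b, against 99.7, 24.8 and 26.7 FPKM in the proximal-like libraries HI 1, sham 1 and sham 3a, and was not called. Duox2, an epithelial peroxide source, and Ccl28, a chemokine for IgA plasma cells, were likewise separated higher but not called, and Reg4, a lectin of the Reg family, was separated lower. Of 32 tested genes of Toll-like receptor signalling, none was called higher and 1 lower (3.125%, beside 1.75% of all genes). Separated higher and separated lower were 9.375% each, beside 7.74% and 16.8% of all genes. The median log2 difference was -0.047, beside -0.051 over all genes. The 1 called was Tlr5, the receptor for flagellin. It stood at 6.20, 4.96 and 7.80 FPKM in the distal-like libraries HI 2, HI 3 and sham 3b, against 17.2, 30.4 and 30.1 FPKM in the proximal-like libraries HI 1, sham 1 and sham 3a. Tlr4, the receptor for lipopolysaccharide named in the series title, was separated the other way without being called, at 15.4, 14.6 and 13.5 FPKM in the distal-like libraries HI 2, HI 3 and sham 3b, against 10.9, 3.82 and 4.36 FPKM in the proximal-like libraries HI 1, sham 1 and sham 3a. Lbp, which carries lipopolysaccharide, was also separated higher, at 2.60 to 9.40 FPKM in distal-like and 1.25 to 1.75 FPKM in proximal-like libraries. The adaptor Myd88 overlapped, at 19.3 to 22.2 FPKM in distal-like and 21.0 to 23.3 FPKM in proximal-like libraries.

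Among regulators and hormones, few members were called. Over all tested genes, 0.509% were called higher and 1.75% lower. Of 17 gut transcription factors, Gata5, of the GATA family, stood at 0.362 to 0.843 FPKM in distal-like and 2.64 to 4.26 FPKM in proximal-like libraries. Isx, which controls retinoid uptake, stood at 15.3 to 21.6 FPKM in distal-like and 32.8 to 44.9 FPKM in proximal-like libraries. Both were called lower (11.8% of the list) and none was called higher. Of 19 mesenchymal transcription factors, Isl1 was called higher (5.26% of the list), at 2.10 to 2.83 FPKM in distal-like and 0.787 to 0.962 FPKM in proximal-like libraries. Of 39 genes of Wnt, BMP, hedgehog and retinoic acid signalling, 1 was called, and it was lower (2.56% of the list). This was Bmp3, at 9.95 to 11.1 FPKM in distal-like and 18.2 to 21.0 FPKM in proximal-like libraries. Of 21 enteroendocrine genes, Nts and Iapp (amylin) were called lower (9.52% of the list). The L-cell hormone Pyy overlapped between the trios, at 127 to 159 FPKM in distal-like and 125 to 143 FPKM in proximal-like libraries. Of 17 stem and crypt genes, Olfm4 alone was called, and it was higher (5.88% of the list). Olfm4 stood at 176, 186 and 217 FPKM in the distal-like libraries HI 2, HI 3 and sham 3b. In the proximal-like libraries HI 1, sham 1 and sham 3a it stood at 111, 82.3 and 78.3 FPKM. Of the 17, 4 were separated higher and 2 lower, and the median log2 difference was -0.019. The stem cell marker Lgr5 was separated lower, at 1.58 to 3.03 FPKM in distal-like and 3.08 to 4.04 FPKM in proximal-like libraries. Of 43 genes of xenobiotic and steroid metabolism, Adh1 was called higher (2.33% of the list) and the glutathione transferases Gsta3 and Gstk1 lower (4.65%).

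Markers of other cells in the wall were compared in the same way, and few were called. Of 17 tested T and innate lymphoid cell genes, none was called higher and 1 lower (5.88%, beside 1.75% of all genes), 9 were separated lower (52.9%, beside 16.8%), and the median log2 difference was -0.59. Their summed level was 83.4 to 109 FPKM in distal-like and 133 to 161 FPKM in proximal-like libraries. Cd8a, a coreceptor of killer T cells, was the 1 called, at 5.71 to 7.02 FPKM in distal-like and 10.9 to 14.1 FPKM in proximal-like libraries. Of 14 B and plasma cell genes, 7 were separated lower and Cxcl13, the chemokine of B cell follicles, was called lower, whereas the summed level overlapped at 415 to 653 FPKM in distal-like and 475 to 666 FPKM in proximal-like libraries. In bulk tissue, fewer cells of a type and less RNA per cell cannot be told apart. Of 14 smooth muscle genes, 5 were separated higher (35.7%, beside 7.74% of all genes) and none was called, and their sum overlapped at 7425 to 8964 FPKM in distal-like and 6961 to 7541 FPKM in proximal-like libraries. Of 18 small intestine and pancreas genes, 5 were listed and 3 tested, and all 3 were separated lower but not called. The 5 listed genes summed to 17.9 to 19.8 FPKM in distal-like and 28.2 to 43.0 FPKM in proximal-like libraries. Of 9 squamous epithelium genes, Pkp1 was called higher (11.1%, beside 0.509% of all genes) and the keratins Krt16 and Krt15 lower (22.2%, beside 1.75%). The keratins stood at no more than 3.46 FPKM in any library. How far these cell types bear on the absorption, transport and defence genes was not tested.

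Of 28 genes of hypoxia and glycolysis none was called, 10 were separated higher (35.7%, beside 7.74% of all genes) and none lower. Their median log2 difference was 0.24. The glucose transporter Slc2a1 led them, at 57.1 to 85.6 FPKM in distal-like and 35.1 to 46.7 FPKM in proximal-like libraries. Of 30 cell cycle genes none was called or separated, and their median log2 difference was -0.22, or -0.09 at equal HI. Of 25 enteric neuron genes none was called and 4 were separated lower (16.0%, beside 16.8% of all genes).

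**Figure D5:**
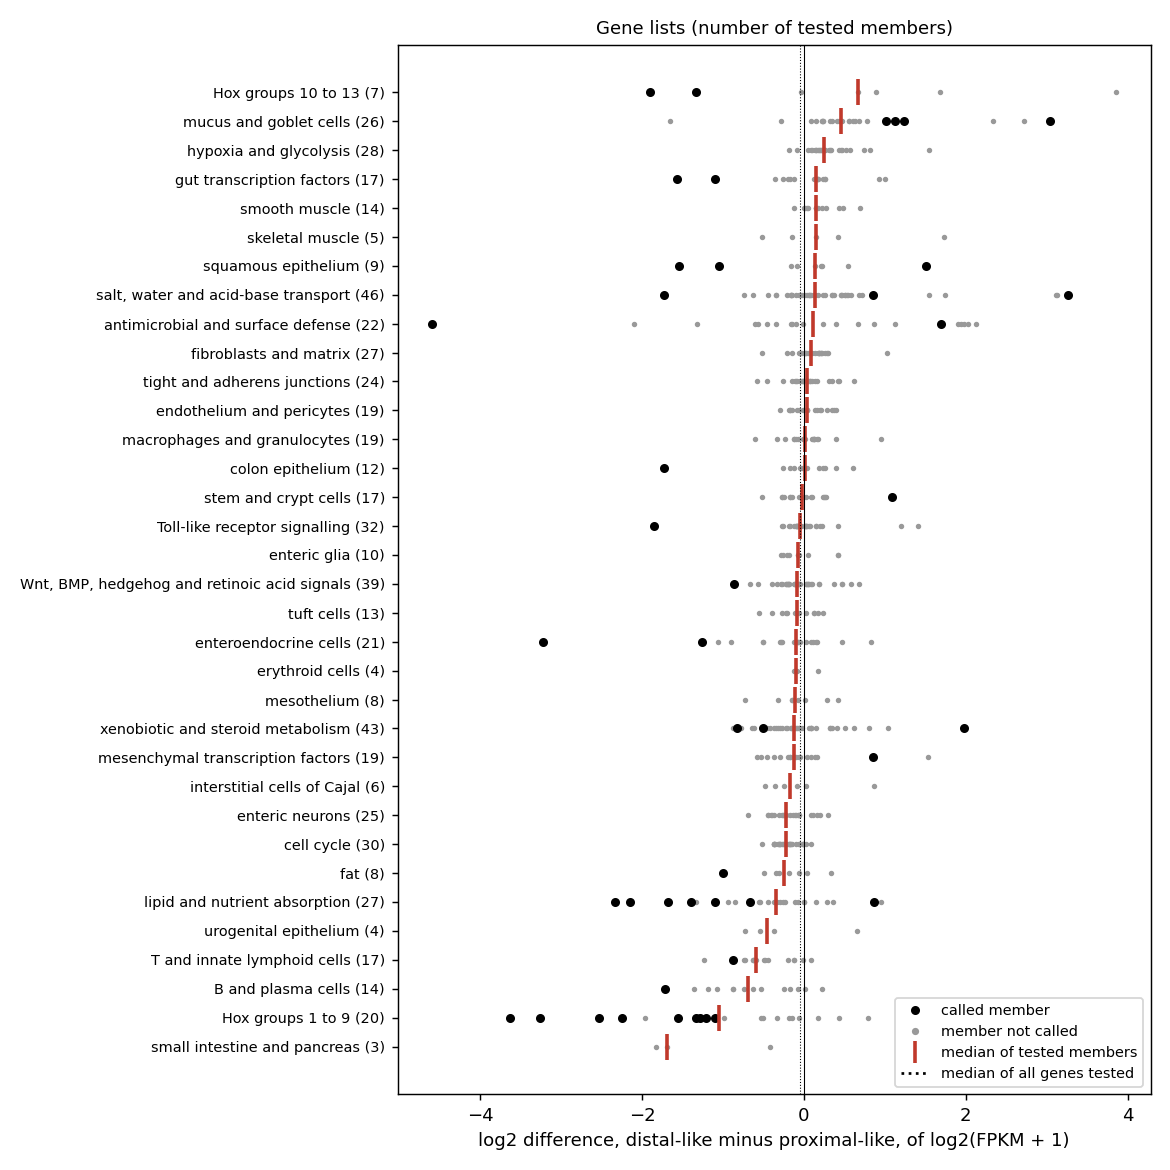
Log2 difference, distal-like minus proximal-like, of log2(FPKM + 1) (x axis) for the tested members of 34 gene lists (y axis, number of tested members in brackets), ordered by the median (red bar); black points were called and grey points were not. The dotted line is the median of all tested genes, -0.05. Hox groups 10 to 13 and mucus genes are at the top. Hox groups 1 to 9 and the small intestine and pancreas genes are at the bottom. The 2 Hox lists include the rule genes Hoxb13 and Hoxb6, so the rule in part set their medians, and their places are no result.

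HI and sham come from the labels and were not used to group the libraries, so HI could be tested with the trio held equal. In that limma fit 13 genes were higher in HI (0.0945% of those tested) and 20 lower (0.145%). Leaving out 1 library gave 15 calls (sham 1), 12 (sham 3a), 16 (sham 3b), 16 (HI 1), 11 (HI 2) or 23 (HI 3). Tgm3, a transglutaminase of epithelia, rose in HI: in the distal-like trio it stood at 99.9 and 158 FPKM in HI 2 and HI 3, against 12.99 FPKM in sham 3b, and in the proximal-like trio at 15.0 FPKM in HI 1, against 0.685 and 0.538 FPKM in sham 1 and sham 3a. Its log2 change at equal trio was 3.24 ± 0.17 (SE; limma adjusted p = 0.00152), and it was called whichever library was left out. Sval1, a seminal vesicle antigen-like gene, and St6galnac1, which puts sialic acid on mucins, rose in the same manner, by 2.72 ± 0.18 and 1.37 ± 0.09 (SE; limma adjusted p = 0.00254 for both), also whichever library was left out. B3gnt7, another enzyme of sugar chains, rose by 1.48 ± 0.14 (SE; limma adjusted p = 0.0206) and was not called without sham 3b, HI 1 or HI 2.

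Among the genes lower in HI at equal trio, Mt-atp6, a mitochondrial ATP synthase subunit, fell to 1800 and 2043 FPKM in HI 2 and HI 3 against 8781 FPKM in sham 3b, and to 1879 FPKM in HI 1 against 7567 and 8749 FPKM in sham 1 and sham 3a. Its log2 change was -2.15 ± 0.10 (SE; limma adjusted p = 0.000929), and it was called whichever library was left out. H3f3c, a histone gene with close copies, fell by 1.14 ± 0.09 on the log2 scale (SE; limma adjusted p = 0.00565) and was not called without sham 3b (adjusted p = 0.0806). Between the trios at equal HI, Mt-atp6 and H3f3c differed by 0.07 ± 0.10 and -0.0038 ± 0.086 (log2, SE). The cell cycle genes Cdk1, Cdc20 and Anln, named after their values were seen, were lower in HI by -0.55 ± 0.07, -0.62 ± 0.08 and -0.80 ± 0.10 (log2, SE), but none of the 3 was called with any 1 library left out.

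Inside a trio, HI differences cannot be told apart from the order of the libraries. Hoxa13, which the rule did not use, stood at 12.9 and 13.1 FPKM in HI 2 and HI 3 against 9.21 FPKM in sham 3b inside the distal-like trio, and at 6.82 FPKM in HI 1 against 2.15 and 1.47 FPKM in sham 1 and sham 3a inside the proximal-like trio. Hoxd10, also outside the rule, stood at 3.41 and 3.71 FPKM in HI 2 and HI 3 against 7.12 FPKM in sham 3b, and at 12.5 FPKM in HI 1 against 24.6 FPKM in both sham 1 and sham 3a. In both trios the HI libraries thus lay further to the distal-like side in these genes, as in the rule genes Hoxb13 and Hoxb6. Tgm3, Sval1, St6galnac1 and B3gnt7 were also higher in distal-like than in proximal-like libraries at equal HI, by 3.05 ± 0.17, 3.56 ± 0.18, 1.88 ± 0.09 and 2.11 ± 0.14 (log2, SE). Holding the trio equal did not hold the levels of these Hox genes equal. Across the trios, HI 1 and sham 3b lay nearest to the dividing line, with sham 3b on the distal-like side. Mt-atp6 stood at 1879 FPKM in HI 1 and 8781 FPKM in sham 3b, and H3f3c at 70.9 and 157 FPKM. What lowered these 2 genes in HI libraries was not tested. Of the 33 genes called for HI at equal trio, 7 were also among the 311, and 31 remain without Hoxb13 and Hoxb6.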

How the data were processed

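The deposited colon table gave FPKM per library for 14803 protein-coding genes, per the file headers; the authors' group columns, log2 values by their size, equalled the means of log2(FPKM + 1) over the libraries of a group within 1e-05 for 14803 genes and were not used further. Per the labels' protocols, RNA was extracted with TRIzol, and mRNA was purified, fragmented and amplified; no aligner, counter, build, strand setting or annotation is given in the sources used. The deposited p-value and fold columns of the authors' own HI and sham comparison, per the file headers, were not used. Ratios of low values between libraries repeated in at most 6.33% of genes, so whole reads and depth could not be recovered, and any 2 libraries differed in at least 14767 genes. FPKM is relative to the library total, so a few abundant genes can shift all others, and reads of near-identical or overlapping genes may be split or shared.

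The genes that reached 1 FPKM in 3 or more libraries were fitted with limma 3.58.1 (R 4.3.3, eBayes with trend) on log2(FPKM + 1) over the 6 colon libraries: the trios alone, the trios with HI or sham, and their interaction. P-values were adjusted by Benjamini-Hochberg over all genes tested (threshold 0.05). Fold changes understate the change of low genes. Only the fit of the trios alone was tested on simulated data. The fit with HI or sham and the interaction were not. The libraries to compare, the rule for grouping them and the 34 lists were chosen with earlier results of these data known; 677 of 853 list entries were listed. The leading genes were the 12 per direction with the largest difference among those called, separated, of the same sign inside sham and HI, with at least 5 FPKM on average in the higher trio and no provisional name; of each list, up to 5 members with the smallest p were open to description, with others described for their known role. A gene of the lists is not reported here. Alternatives were a pseudocount of 0.1, no filter, at least 5 FPKM in 3 libraries, median-ratio scaling, rescaling without mitochondrial genes, no trend, and each library left out. The hippocampus table was not analysed here.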

Additional observations from a re-analysis of the deposited data

Results flagged for a closer look

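In 2 genes the difference between distal-like and proximal-like libraries was opposite inside HI and inside sham, by a limma interaction with 2 residual degrees of freedom. Each of the 2 differences has an arm of 1 library, sham 3b inside sham and HI 1 inside HI, whose spread is assumed to be that of the others. In all, 591 of 13753 genes had an unadjusted p under 0.05. Itln1, a lectin that binds microbial sugars, stood at 523 and 525 FPKM in HI 2 and HI 3 against 96.0 FPKM in HI 1 (log2 difference 2.44), and at 31.8 FPKM in sham 3b against 116 and 130 FPKM in sham 1 and sham 3a (-1.91). The 2 differences differed by 4.35 ± 0.15 (log2, SE; limma adjusted p = 0.000759). For Fam134b, a receptor for turnover of the endoplasmic reticulum, they differed by 8.66 ± 0.28 (log2, SE; limma adjusted p = 0.000759): it was listed at 0 in sham 3b and HI 1, the 2 lone libraries, and stood at 16.3 to 23.2 FPKM in the other libraries, and a listed 0 can be a failed estimate.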

How the results depend on the processing

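Under the 6 alternatives of scale, filter and trend, the 311 genes called between the trios became 218 to 299 and the 384 at equal HI 284 to 375. The 33 HI calls at equal trio became 16 when rescaled without mitochondrial genes and 6 without a trend, and 24 to 33 under the others. The 2 interaction calls became 4 with no filter. With 1 library left out, the ranges were 1 to 442 for the trios, 97 to 563 at equal HI, 11 to 23 for HI, 4 to 11 for the interaction, which could not be fitted without sham 3b or HI 1, 3991 to 5716 for separated genes (3375 in full; fewer libraries separate more easily), 1 to 23 of 24 leading genes called, and 28 to 33 of 34 lists with the sign of their median kept. No result changed its sign while called. Where leaving out a library leaves an arm with 1 sample, that sample is assumed to vary like the others. The planned grouping by means of Hox groups, which include both rule genes, gave no other groups and so no other value. No paired analysis was possible because 2 sham columns carry the same number. What limits these values is the number of libraries, 3 a trio, with sham 3b and HI 1 near the dividing line, and an unknown depth.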
